A study of Rattus norvegicus with 9 samples.

Results

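The miR-7 family was followed in cultured rat aortic vascular smooth muscle cells through the 4 rows of the count table that carry its names: rno-miR-7a-5p, rno-miR-7a-1-3p, rno-miR-7a-2-3p and rno-miR-7b (the rat prefix is left out below). The 4 arms were picked by name from the 762 mature rat miRNAs of the table. The family was proposed after miR-7a-5p had been seen to be higher in PDGF-BB libraries. Its values against PDGF-BB are therefore descriptions with no test. Of the 4 arms, 3 had a count in some library, and 2 (miR-7a-5p and miR-7a-1-3p) were abundant enough to be among the 304 miRNAs fitted.

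Each of 3 groups has 3 small RNA libraries, and all cells were aortic vascular smooth muscle cells in culture. Differentiated cells were left untreated. The mitogen PDGF-BB (platelet-derived growth factor BB) was given for 24 h, at 30 ng/ml, to the second group. The third group, H3K4me2-edited cells, was made with a lentivirus expressing a sequence named Myocardin-F-LSD1. The name joins the contractile gene co-activator myocardin to the histone demethylase LSD1. The protocol text gives 24 h without serum before treatment, and whether differentiated and edited cells were starved too is not stated. In the titles both treated groups, PDGF-BB and edited, are called de-differentiated. The promoter of the construct and the origin of the cells are not given in the labels. Transduced cells without the construct were not analysed here, so transduction and construct cannot be told apart. Nothing in the labels says that replicates came from separate cultures. The p-values therefore reflect only library-to-library spread, possibly of technical origin.

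miR-7 is an old animal miRNA, abundant in neuroendocrine and brain tissue, where it restrains growth factor signalling through targets such as the EGF receptor and insulin receptor substrates. It is also known for its unusual partners among long RNAs: the circular RNA Cdr1as holds many miR-7 sites, and the long noncoding RNA Cyrano directs the destruction of miR-7 itself in mouse. A miRNA hairpin yields a 5p and a 3p strand, and for miR-7 the 5p strand is the guide. Because the mature 5p strand of the 2 miR-7a hairpins is identical, the 3p strands are the arms that can be assigned to a locus.

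The mature sequences are shown because they decide which locus a count can be assigned to. They are RefSeq sequences of the GRCr8 build, written 5′ to 3′ with the seed (bases 2 to 8) in capitals.
miR-7a-5p: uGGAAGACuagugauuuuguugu
miR-7b: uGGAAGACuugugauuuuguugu
miR-7a-1-3p: aCAACAAAucacagucugccau
miR-7a-2-3p: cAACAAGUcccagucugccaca

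miR-7a-5p and miR-7b share the seed GGAAGAC, and no other name among the 693 RefSeq mature rat miRNAs has it. They are equal at 22 of 23 bases, and the substitution is A10U, counted from the 5′ end, outside the seed. No source used here says whether the authors' counting separated reads that differ by 1 base, so the split between miR-7a-5p and miR-7b is uncertain. The 3p arms of the 2 miR-7a hairpins have different seeds and match at 18 of 21 aligned bases when shifted by 1 base, which separates them more clearly than the guides. miR-7a-1-3p shares its seed CAACAAA with miR-3065-5p.

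The hairpins of miR-7a-1 and miR-7a-2 are shown with their mature arms in capitals, since the guide is the same stretch in both while the 3p arm differs.
mir-7a-1: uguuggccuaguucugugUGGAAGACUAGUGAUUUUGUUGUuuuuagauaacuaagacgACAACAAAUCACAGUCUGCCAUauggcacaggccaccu
mir-7a-2: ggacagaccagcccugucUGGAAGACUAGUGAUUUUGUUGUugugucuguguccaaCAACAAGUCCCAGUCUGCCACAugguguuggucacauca

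In GRCr8, which is not the build of the deposited counts, RefSeq places mir-7a-1 at chr17:6278692-6278788 on the plus strand, inside the span of Hnrnpk, the gene of an abundant RNA-binding protein. mir-7a-2 lies at chr1:142215800-142215894 on the plus strand, inside the span of the uncharacterised gene LOC120099863 and with Det1 and Aen as the nearest coding genes on either side. mir-7b lies at chr9:1167436-1167545 on the plus strand. The RefSeq gene table used here gives gene spans only, so whether a hairpin is intronic was not looked up.

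Library totals ran from 1783409 to 3850232 counts for differentiated cells, from 1982051 to 3568888 for PDGF-BB and from 3149262 to 11392178 for edited cells. Levels are given as CPM (counts per 1000000 counts) scaled by TMM factors, which correct for a shift in library composition, and these factors were highest in edited libraries (1.15 to 1.29, against 0.847 to 1.03 in the others). The edgeR quasi-likelihood test across all 304 miRNAs gave the log2 fold changes and their SE, with an adjusted p under 0.05 counted as passing. In PDGF-BB against differentiated cells 10.2% of miRNAs passed (22 higher, 7.24%, and 9 lower, 2.96%), or 24 higher and 2 lower with library totals as the scaling and 24 each way with DESeq2. In edited against differentiated cells 59.2% passed (98 higher and 82 lower), or 151 higher and 40 lower with library totals. In edited against PDGF-BB cells 58.9% passed (85 higher, 28.0%, and 94 lower, 30.9%), or 124 higher and 52 lower with library totals. The PDGF-BB count of 31 became 16, 12 and 3 without differentiated replicates 1, 2 and 3, 12, 12 and 18 without PDGF-BB replicates 1, 2 and 3, and 53 without edited replicate 1. Library totals moved the median log2 fold change of all miRNAs from 0.031 to 0.16, from −0.0064 to 0.44 and from −0.022 to 0.30 in the same order.

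The smooth muscle markers miR-143 and miR-145 were present in every library. Their 4 arms summed to 214852 to 251402 CPM in differentiated cells, 133175 to 171204 CPM with PDGF-BB and 37109 to 63120 CPM in edited cells. The 2 endothelial arms of miR-126a summed to 1760 to 2146, 1791 to 1895 and 2906 to 3346 CPM. Of 6 neural and neuroendocrine arms, the 4 of miR-124 and miR-375 were at 0 in each group, and the sum, which is miR-9a, was 32.4 to 41.1, 26.7 to 31.4 and 144 to 145 CPM. The 8 blood markers summed to 25.9 to 35.7, 21.4 to 29.9 and 17.999 to 25.2 CPM, with both miR-223-5p and miR-451-3p at 0 throughout. The 7 epithelial markers summed to 74.6 to 105, 38.1 to 53.2 and 22.4 to 49.3 CPM, with miR-205 at 0 in differentiated and PDGF-BB cells. The sum hides opposite changes in edited against differentiated cells. By the edgeR test 3 of the 6 tested epithelial markers rose (miR-200c-3p, miR-141-3p and miR-203a-3p) and 3 fell (miR-200a-3p, miR-200b-3p and miR-429). Of all miRNAs 32.2% rose and 27.0% fell in that comparison. For miR-203a-3p edited replicate 1, at 2.21 CPM, lay within the differentiated range of 0.854 to 2.71 CPM. In bulk RNA, fewer cells of a type and less of an RNA per cell cannot be told apart.

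miR-7a-5p, the guide strand of both miR-7a hairpins, made up nearly all of the family in every library. Its raw counts were 1705, 4256 and 2373 in differentiated replicates 1, 2 and 3, 4763, 6486 and 10507 in PDGF-BB replicates, and 3585, 13187 and 7924 in edited replicates. Its share of the family's counts was 98.2% to 98.8% without treatment, 98.9% to 99.2% with PDGF-BB and 97.6% to 97.9% after editing. The remainder was almost entirely miR-7a-1-3p.

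As a level, miR-7a-5p stood at 1129, 1211 and 1284 CPM in the 3 differentiated libraries. It was at 2634, 2613 and 2861 CPM in the PDGF-BB libraries and at 992, 899 and 936 CPM in the edited libraries. The 3 groups did not overlap: each PDGF-BB library lay above each differentiated library, and each edited library lay below, on the TMM scale. The means were 2703 ± 137 (SD, n = 3) in PDGF-BB, 1208 ± 77.7 (n = 3) in differentiated and 943 ± 46.9 (n = 3) in edited cells. By raw count miR-7a-5p ranked 45 to 48 in abundance among all miRNAs with PDGF-BB, 56 to 59 without treatment and 62 to 65 after editing.

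In PDGF-BB against differentiated cells, the comparison for which the family was proposed, the log2 fold change of miR-7a-5p was 1.16 ± 0.094. It lay between 1.12 and 1.19 when any of the 9 libraries was left out and was 1.30 with library totals. The rise was larger than the spread between replicates on either scale, and it is given as a description. Libraries of the 2 groups did not overlap for 35.2% of all miRNAs, 18.1% in the higher direction.

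**Figure D1:**
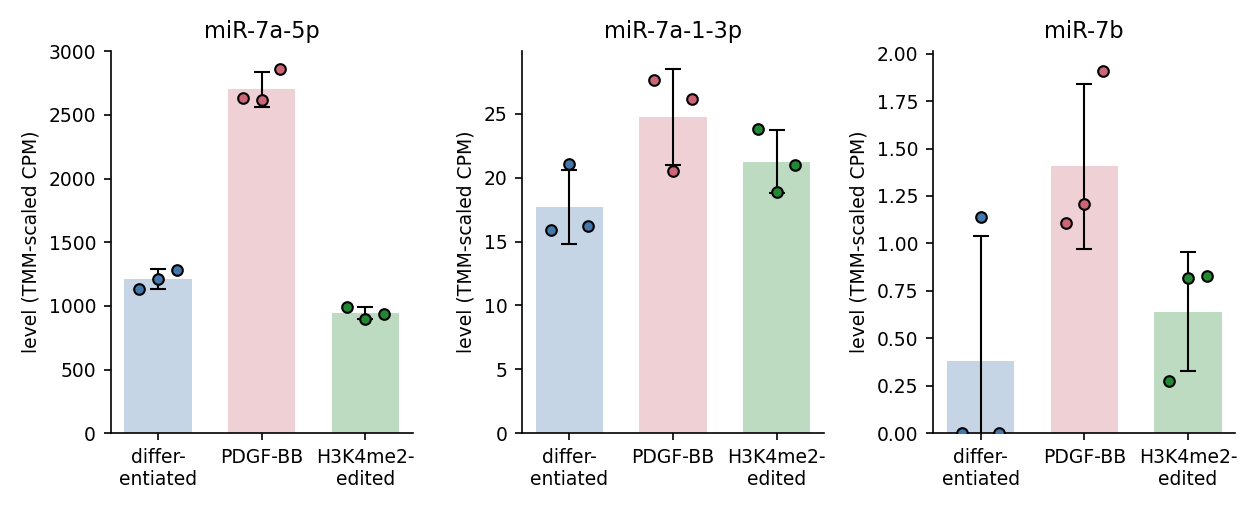
Levels of miR-7a-5p, miR-7a-1-3p and miR-7b in TMM-scaled CPM (vertical axes, each from 0). Points are libraries, bars are group means and error bars are SD over n = 3, cut at 0 for miR-7b. The PDGF-BB libraries of miR-7a-5p, at 2613 to 2861 CPM, stand above the others, while the points of miR-7a-1-3p overlap between groups.

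In edited against differentiated cells miR-7a-5p fell on the TMM scale (log2 fold change −0.36 ± 0.093, edgeR adjusted p = 0.00881), while with library totals the sign turned to 0.089 ± 0.12 (edgeR adjusted p = 0.552). The differentiated libraries are the same as in the PDGF-BB comparison. In CPM without TMM scaling the edited libraries were at 1138, 1158 and 1077 and the differentiated libraries at 956, 1105 and 1110, so the groups overlapped. The fall also failed to pass without edited replicate 2 (−0.27 ± 0.11, edgeR adjusted p = 0.0642) and without the filter on low counts (−0.24 ± 0.12, edgeR adjusted p = 0.121). With 59.2% of miRNAs passing here, 27.0% of all downwards, and libraries that do not overlap for 63.5% (31.9% downwards), a call does not set miR-7a-5p apart. The endothelial and miR-9a levels given above were higher in the same edited libraries, and their part in the result was not tested.

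The gap between the 2 de-differentiated states was the largest of the 3 differences of miR-7a-5p with TMM scaling. Its log2 fold change in edited against PDGF-BB cells was −1.52 ± 0.095, and −1.21 ± 0.12 with library totals. Libraries did not overlap for 60.2% of all miRNAs in this comparison, 32.9% in the lower direction. It shares the PDGF-BB libraries for which the family was proposed, so this too is a description.

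miR-7a-1-3p, the passenger strand assigned to the mir-7a-1 hairpin in Hnrnpk, was far scarcer. Its raw counts were 24, 74 and 30 in differentiated, 50, 51 and 96 in PDGF-BB and 86, 277 and 178 in edited replicates 1, 2 and 3. In level these are 15.9, 21.1 and 16.2 CPM in differentiated, 27.7, 20.5 and 26.1 CPM in PDGF-BB and 23.8, 18.9 and 21.0 CPM in edited libraries. On the TMM scale PDGF-BB replicate 2 lay within the differentiated range, and the edited libraries overlapped both other groups. In CPM without TMM scaling the differentiated libraries were at 13.5, 19.22 and 14.0. The PDGF-BB libraries were then at 25.2, 19.27 and 26.9 and the edited libraries at 27.3, 24.3 and 24.2. Neither treated group overlapped differentiated cells on this scale, for PDGF-BB only by 19.27 against 19.22. The share of all miRNAs that do not overlap on this scale was not counted. With library totals the median log2 fold change of all miRNAs against differentiated cells was 0.16 with PDGF-BB and 0.44 after editing.

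The means of miR-7a-1-3p were 24.8 ± 3.74 CPM with PDGF-BB, 21.2 ± 2.47 CPM after editing and 17.7 ± 2.89 CPM without treatment (SD, n = 3). Its log2 fold change was 0.45 ± 0.20 in PDGF-BB against differentiated cells, and 0.59 ± 0.22 with library totals. In edited against differentiated cells it was 0.22 ± 0.19, which did not pass (edgeR adjusted p = 0.341), and with library totals it was 0.67 ± 0.21 and passed (edgeR adjusted p = 0.0178). In edited against PDGF-BB cells it was −0.23 ± 0.19, and 0.079 ± 0.20 with library totals, so the order of these states for this arm depends on the scaling.

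The balance of the 2 arms within a library needs no scaling, because each count is divided by another from the same library. In differentiated replicates 1, 2 and 3 there were 71.0, 57.5 and 79.1 miR-7a-5p counts per miR-7a-1-3p count. In PDGF-BB replicates there were 95.3, 127 and 109, and in edited replicates 41.7, 47.6 and 44.5. The 3 groups separated completely, with PDGF-BB highest and edited lowest.

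Counting error was wide in the shallow libraries. The exact 95% interval of the ratio was 47.6 to 111 in differentiated replicate 1, where miR-7a-1-3p had 24 counts, and 42.3 to 53.8 in edited replicate 2, where it had 277. Intervals of differentiated and PDGF-BB libraries overlapped for some pairs and not for others: that of differentiated replicate 2 (45.7 to 73.4) lay below those of PDGF-BB replicates 2 (96.6 to 171) and 3 (89.5 to 135). Geometric means were 110 with PDGF-BB, 68.6 without treatment and 44.5 after editing, and summed counts gave 110, 65.1 and 45.6.

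The log2 ratio of miR-7a-5p to miR-7a-1-3p was 6.78 ± 0.21 with PDGF-BB, 6.10 ± 0.23 without treatment and 5.48 ± 0.096 after editing (SD, n = 3). The difference from differentiated cells was 0.68 ± 0.18 (SE) in PDGF-BB and −0.62 ± 0.15 in edited cells. The 2 differences share the differentiated libraries. Between edited and PDGF-BB cells the log2 ratio differed by −1.30 ± 0.13. Because miR-7a-5p is the arm for which the family was proposed, these ratios were not tested.

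**Figure D2:**
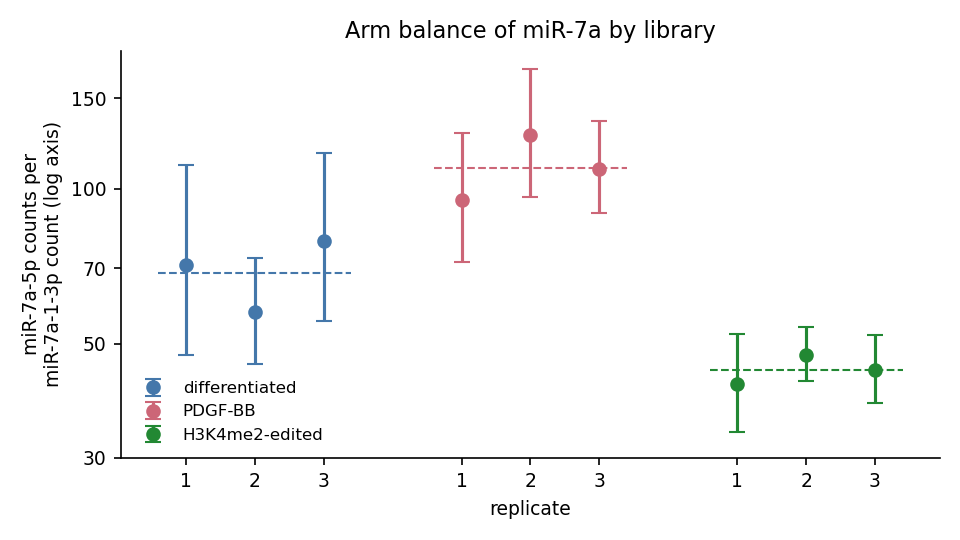
Counts of miR-7a-5p per count of miR-7a-1-3p in each library (log axis), with exact 95% intervals that cover counting error only. Dashed lines are geometric means of 3 libraries, at 110 with PDGF-BB, 68.6 without treatment and 44.5 after editing, and no library of one group lies among those of another.

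The same ratio was taken for the 99 hairpins whose arms both passed the filter and had counts in each library, always as the more abundant arm over the rarer. The miR-7a-5p count used for mir-7a-1 may include strands from mir-7a-2, so this ratio need not be that of mir-7a-1 alone. For mir-7a-1 the change with PDGF-BB, 0.68 on the log2 scale, was rank 6 of 99 from the top, where the median was −0.088, the quartiles were −0.34 and 0.062 and the range was −1.77 to 1.26. In edited against differentiated cells its change of −0.62 was rank 10 of 99 from the bottom, where the median was −0.084. In edited against PDGF-BB cells its change of −1.30 was rank 2 of 99 from the bottom, behind miR-29b (−1.41). The 2 groups of libraries did not overlap upwards for 9.09% of hairpins with PDGF-BB, downwards for 15.2% in edited against differentiated and downwards for 14.1% in edited against PDGF-BB cells. The family was proposed because miR-7a-5p was high in PDGF-BB libraries, and that choice itself favours far ranks in the comparisons that hold them. The ranking was also added after the values were seen. These are ranks in this series and not a test.

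**Figure D3:**
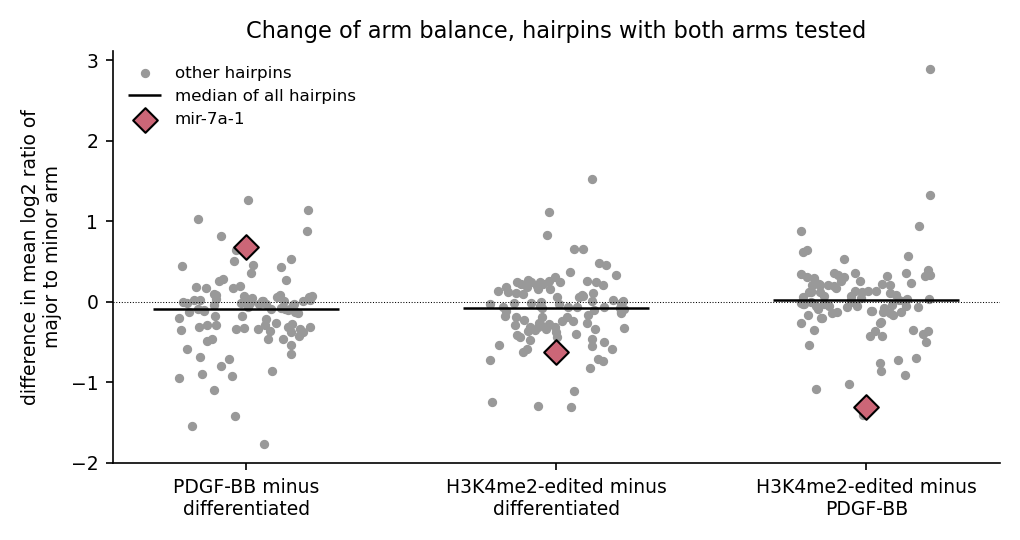
Difference between groups in the mean log2 ratio of the major to the minor arm (vertical axis), for the 99 hairpins with both arms tested. Grey points are other hairpins, spread sideways for visibility, lines are medians, and the diamond is mir-7a-1 at 0.68, −0.62 and −1.30. The miR-7a-5p count behind the diamond may include strands from mir-7a-2.

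miR-7a-2-3p, the arm that would mark the second miR-7a hairpin, had 0 counts in all 9 libraries. Over all libraries 0 of 866 counts of the 2 3p arms were miR-7a-2-3p, which allows a share of up to 0.346%. By group the limits were 2.34% of 128 counts in differentiated, 1.52% of 197 in PDGF-BB and 0.555% of 541 in edited cells. The 3 counts that a count of 0 allows correspond to 0.205 CPM in edited replicate 2 and 1.99 CPM in differentiated replicate 1. How many 5p strands come from each hairpin is not measured by these counts, since the 3p arms of different hairpins need not be kept alike.

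miR-7b, made from a separate hairpin with the same seed, was at the edge of detection. It had 0, 4 and 0 counts in differentiated, 2, 3 and 7 in PDGF-BB and 1, 12 and 7 in edited replicates 1, 2 and 3. In level the PDGF-BB libraries lay at 1.11, 1.21 and 1.91 CPM and the edited libraries at 0.277, 0.818 and 0.827 CPM. Differentiated replicate 2 was at 1.14 CPM and the others were at 0. The low counts overlap between differentiated and both other groups, and the arm did not pass the filter, so it is not among the 304 miRNAs fitted.

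Among counts of miR-7a-5p and miR-7b together, miR-7b took 36 of 54822, or 0.0657% (exact 95% interval 0.0460% to 0.0909%). The share was 0.0809% (0.0494% to 0.125%) after editing, 0.0551% (0.0285% to 0.0963%) with PDGF-BB and 0.0480% (0.0131% to 0.123%) without treatment, and these intervals overlap. With the sequences differing at A10U, it was not tested how many of the 36 are miR-7a-5p reads with a changed base.

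The miRNAs most like miR-7a-5p were taken as the 5 with the highest Pearson correlation of log2 CPM over the 9 libraries. They were miR-99b-3p (r = 0.96, Spearman rho = 0.90), miR-222-5p (0.96, 0.80), miR-449a-5p (0.95, 0.92), miR-129-5p (0.94, 0.75) and miR-324-3p (0.93, 0.88). Over the other 302 miRNAs r ran from −0.91 to 0.96 with a median of 0.033. The 9 points fall into the 3 groups and share their libraries and scaling, so r mostly restates the order of the group levels, and no p is given.

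All 5 were highest in PDGF-BB cells. miR-99b-3p, a passenger strand, was at 162 ± 4.82 CPM without treatment, 244 ± 10.4 CPM with PDGF-BB and 118 ± 9.20 CPM after editing (SD, n = 3). miR-449a-5p, which shares its seed with miR-34, was at 181 ± 25.8, 326 ± 22.9 and 123 ± 27.2 CPM in the same order. miR-324-3p was at 99.7 ± 1.66, 131 ± 2.26 and 71.4 ± 3.39 CPM.

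miR-222-5p, a passenger strand from the mitogen-linked miR-221/222 cluster, was at 10.5 ± 3.77, 59.9 ± 12.6 and 9.59 ± 3.20 CPM, with differentiated and edited libraries overlapping. miR-129-5p, a brain miRNA, was at 1.52 ± 0.812, 8.13 ± 1.21 and 1.31 ± 0.444 CPM and rests on 12, 66 and 37 summed counts. Of the 5, these 2 had a larger spread between PDGF-BB and differentiated cells than miR-7a-5p itself, with log2 fold changes of 2.45 ± 0.32 and 2.25 ± 0.42, and the other 3 a smaller one (0.39 to 0.85).

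**Figure D4:**
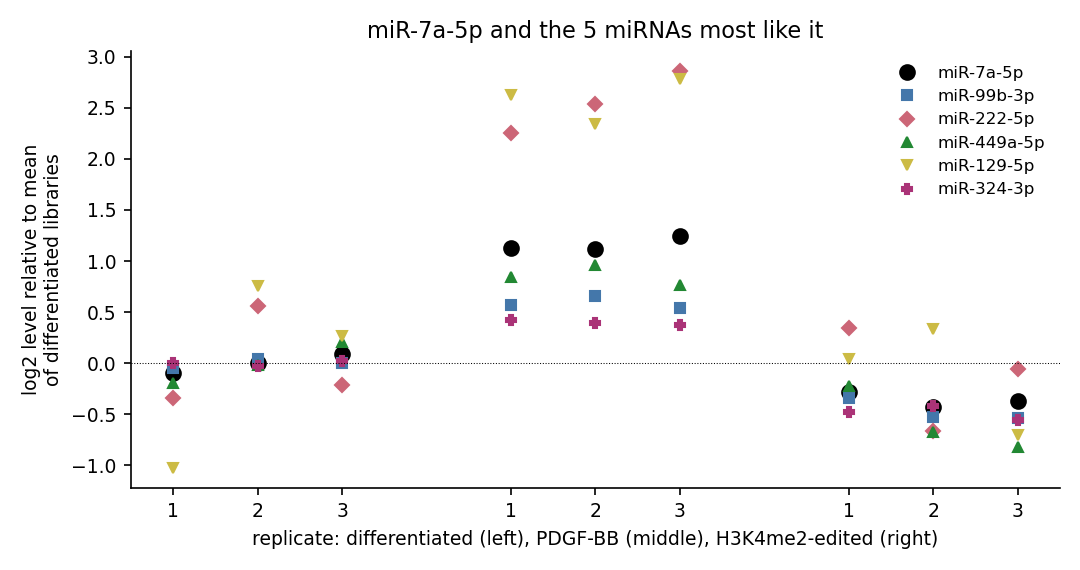
Log2 level of miR-7a-5p and the 5 miRNAs most like it in each library, relative to the mean log2 level of that miRNA in the 3 differentiated libraries. All PDGF-BB points lie above 0, with miR-7a-5p between the steeper miR-222-5p and miR-129-5p and the flatter miR-449a-5p, miR-99b-3p and miR-324-3p.

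Other miRNAs known to be destroyed when they pair with a particular target RNA were listed together with miR-671, which cleaves the circular RNA Cdr1as in human cells. Only miR-671 was listed for its link to Cdr1as, so counts over the list do not describe a circuit of miR-7. Of 10 listed names 8 are in the table and all 8 were tested. The absent names are miR-671-5p and miR-671-3p. The name miR-671 gives no arm, and whether it is the strand that cleaves Cdr1as was not looked up. This list and the neural list below were chosen with earlier results of these data known, so how many of their members rose or fell is a description. Members that share a cluster, such as miR-221-3p and miR-222-3p, are not separate observations. In PDGF-BB against differentiated cells 3 of 8 rose and 0 fell by the edgeR test, with a median log2 fold change of 0.46 against 0.031 for all 304 miRNAs, of which 7.24% rose. Those that rose were miR-29b-3p (1.17 ± 0.20), miR-221-3p (1.01 ± 0.16) and miR-222-3p (0.99 ± 0.20). miR-29b-3p, a collagen regulator whose decay is linked to the Nrep transcript in mouse, did not pass without differentiated replicate 3 (1.16, edgeR adjusted p = 0.0522). miR-221-3p did not pass without the same library (0.88, edgeR adjusted p = 0.0710). miR-222-3p did not pass without differentiated replicates 2 (0.80) or 3 (0.93) or PDGF-BB replicates 1 (0.86) or 2 (0.97), with edgeR adjusted p from 0.0564 to 0.1002.

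The other 5 did not pass with PDGF-BB. The cell-cycle-linked miR-322-5p and miR-503-5p were at −0.21 ± 0.32 and 0.45 ± 0.38, and miR-30b-5p and miR-30c-5p at −0.12 ± 0.15 (0.012 with library totals) and −0.18 ± 0.091. miR-671 was at 5.81 ± 1.11 CPM without treatment, 8.14 ± 3.15 CPM with PDGF-BB and 4.93 ± 0.347 CPM after editing (SD, n = 3), with a log2 fold change of 0.47 ± 0.32 with PDGF-BB.

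In edited against differentiated cells 5 of the 8 rose and 2 fell, where 32.2% of all miRNAs rose and 27.0% fell, with a median of 0.39 against −0.0064 for all. miR-221-3p (−1.02 ± 0.16) and miR-222-3p (−1.40 ± 0.20) fell. miR-29b-3p (0.86 ± 0.20), miR-30b-5p (0.51 ± 0.15), miR-30c-5p (0.27 ± 0.091), miR-322-5p (1.202 ± 0.32) and miR-503-5p (1.55 ± 0.38) rose. For miR-322-5p edited replicate 1, at 3595 CPM, lay within the differentiated range of 2917 to 4058 CPM. The lowest edited library of miR-503-5p, at 332 CPM, also lay within its differentiated range, 254 to 369 CPM. The call of miR-30c-5p was lost without differentiated replicates 2 (0.28) or 3 (0.26) or edited replicate 3 (0.28), with edgeR adjusted p from 0.0576 to 0.0953. miR-671, at −0.29 ± 0.31 (0.15 with library totals), did not pass.

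In edited against PDGF-BB cells 4 of the 8 rose (both miR-30 arms, miR-322-5p and miR-503-5p) and 3 fell (miR-221-3p, miR-222-3p and miR-671), where 28.0% of all miRNAs rose and 30.9% fell, with a median of 0.070 against −0.022 for all. miR-671, at −0.76 ± 0.29, failed to pass with library totals (−0.45), with DESeq2 size factors (−0.72), without the filter (−0.64) and in 7 of 9 fits that leave out a library, all but those without PDGF-BB replicate 1 or edited replicate 1. It was −0.46 without PDGF-BB replicate 2. miR-503-5p, at 1.10 ± 0.38, failed to pass without edited replicates 2 (0.85) or 3 (0.98) or PDGF-BB replicates 1 (1.10), 2 (1.08) or 3 (1.14). miR-29b-3p was at −0.31 ± 0.20 (0.016 with library totals) and did not pass.

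Neuroendocrine and neural miRNAs, from the tissues in which miR-7 is abundant, had 13 of 14 listed names in the table, 9 with a count and 7 tested. miR-375, the islet and pituitary miRNA often found beside miR-7, and the neuronal miR-124 had 0 counts in all 9 libraries for both arms. In PDGF-BB against differentiated cells 1 of 7 rose and 0 fell, where 7.24% of all miRNAs rose and 2.96% fell (median 0.22, against 0.031 for all), and the 1 was miR-129-5p, whose call was lost without differentiated replicate 3 (2.20, edgeR adjusted p = 0.0710). Its partner strands were sparse, with 7, 11 and 14 summed counts of miR-129-2-3p in differentiated, PDGF-BB and edited cells and 0, 1 and 0 of miR-129-1-3p.

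In edited against differentiated cells 5 of the 7 rose and 0 fell, with a median of 2.03 against −0.0064 for all miRNAs, of which 32.2% rose. miR-9a-5p (2.03 ± 0.14), a neural miRNA, and its partner miR-9a-3p (1.40 ± 0.27) rose, as did the sensory organ cluster miR-96-5p (3.57 ± 0.24), miR-182 (3.87 ± 0.30) and miR-183-5p (3.34 ± 0.30). Being partner arms of miR-9a and members of a single cluster, these 5 are not separate observations. miR-128-3p, at 0.089 ± 0.12, did not pass (0.54 and past the threshold with library totals), and miR-129-5p was at −0.34 ± 0.48 (0.12 with library totals). miR-7a-5p did not rise with these miRNAs on the TMM scale. In edited against PDGF-BB cells the same 5 miRNAs rose and miR-129-5p fell (−2.59 ± 0.35), where 28.0% of all miRNAs rose and 30.9% fell, with a median of 2.41 against −0.022 for all.

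**Figure D5:**
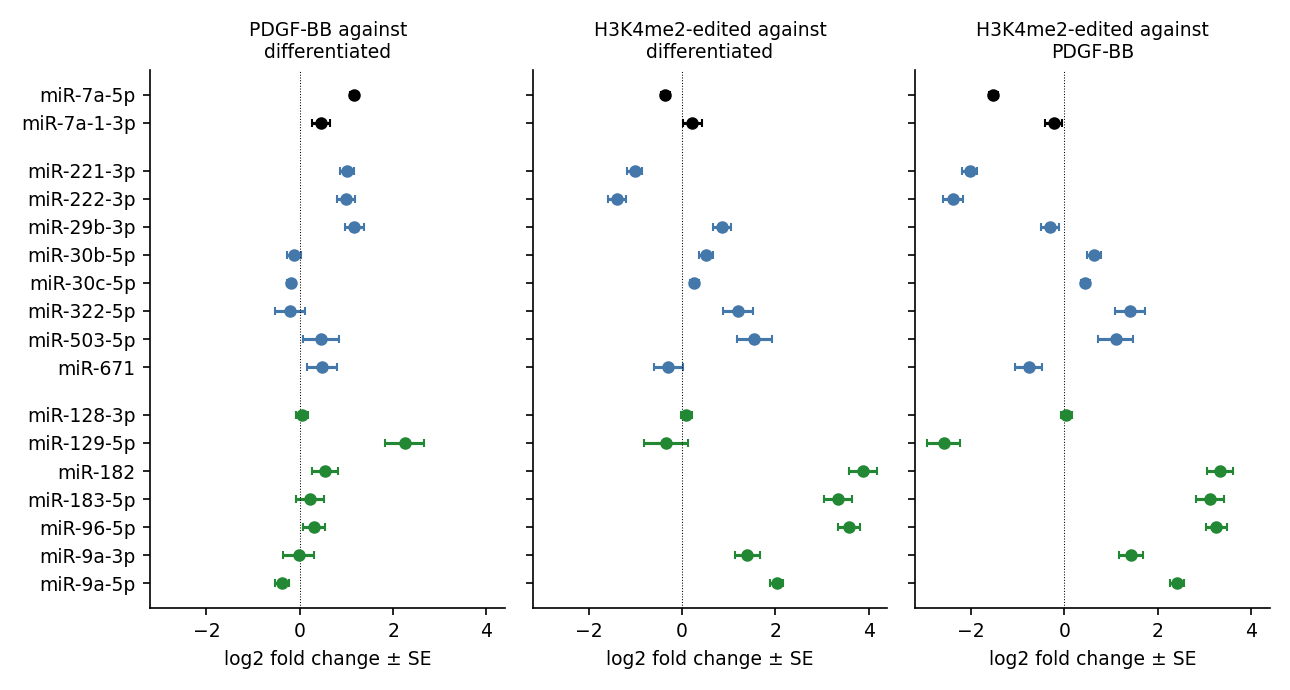
Log2 fold changes ± SE from the edgeR fit in the 3 comparisons for the miR-7 arms (black), the list of target-directed decay miRNAs with miR-671 (blue) and the neuroendocrine and neural miRNAs (green). miR-7a-5p lies at 1.16, −0.36 and −1.52, with miR-7a-1-3p nearer 0 in each panel. With library totals, not drawn, miR-7a-5p is at 0.089 and miR-7a-1-3p at 0.67 in edited against differentiated cells, so this order turns. The miR-183, miR-96 and miR-182 cluster and miR-9a lie to the right in both panels with edited cells.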

How the data were processed

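The 9 libraries (3 per group) came from a QIAseq kit and were sequenced to 75 nt from 1 end, per the labels' protocols. The authors deposited whole-number counts for each mature miRNA, with no normalization. The submitters' processing notes name the build Rnor_6.0. No source used here gives the aligner, counter, miRBase release or use of molecular identifiers, so intervals and floors (3 counts) cover counting error only.

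The edgeR 4.0.16 quasi-likelihood model (R 4.3.3) took all 9 libraries, 1 coefficient per group, TMM scaling and filterByExpr (minimum count 10), which kept 304 of 762 miRNAs. P-values were adjusted by Benjamini-Hochberg over all of them at 0.05, and SE is the log2 fold change over the root of F. The fit was tested on simulated data. Log2 CPM for correlations used a prior count of 2, and intervals are exact (Clopper-Pearson) at 95%. RefSeq names matched 686 of 762 table names. Replicates differed beyond sampling noise, and 0 columns belonged to other samples.

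The members and lists were chosen with earlier results of these data known, and the ranking of arm ratios over hairpins was added after the values were seen. Named were the members, the 5 most correlated miRNAs and listed miRNAs with a count. Alternatives were library totals, DESeq2 size factors, DESeq2 1.42.0, no filter, the compared libraries alone, a replicate block and leaving out each library.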

Additional observations from a re-analysis of the deposited data

How the results depend on the processing

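With library totals miR-7a-5p in edited against differentiated cells turned from −0.36 to 0.089, and miR-7a-1-3p in edited against PDGF-BB cells from −0.23 to 0.079. Without the filter the fall of miR-7a-5p in edited cells was −0.24 and did not pass, and without 1 library it ran from −0.37 to −0.27. The cause was not tested. The size of miR-7a-5p kept its sign in each of 15 alternatives with PDGF-BB (1.12 to 1.19 without 1 library) and in edited against PDGF-BB cells (−1.52 to −1.41). The number of miRNAs past the threshold with PDGF-BB was 31, 48 with DESeq2 and 3 to 53 without 1 library, and 139 to 207 and 145 to 198 in the other comparisons. The log2 arm ratio ran from 5.998 to 6.23, 6.67 to 6.88 and 5.43 to 5.52 without 1 library. Correlations with miR-7a-5p were 0.98 for miR-99b-3p, 0.97 for miR-222-5p, 0.94 for miR-449a-5p, 0.97 for miR-129-5p and 0.96 for miR-324-3p with library totals, and 0.98, 0.97, 0.97, 0.96 and 0.99 without the 3 edited libraries.

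Same-numbered libraries deviated together (r over 0.1) in 4 of 9 pairs, from −0.032 to 0.42, and the best match had the same number in 11 of 18 cases. The highest r of any pair, 0.52, was between differently numbered libraries, differentiated replicate 2 and PDGF-BB replicate 3. The labels do not say that equal numbers share a culture or day, and this was not tested. The main fit therefore takes no pairing. With the replicate block the counts were 29, 182 and 181 and miR-7a-5p was at 1.16, −0.36 and −1.52. Depth limits miR-7b and miR-7a-2-3p. Without the filter miR-7b was at 1.36 ± 0.88, 0.48 ± 0.85 and −0.88 ± 0.65 in the same order of comparisons.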
